A study of Mus musculus with 6 samples.

Results

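The genes described here are 3 metallothioneins (Mt1, Mt2 and Mt3), the transcription factor gene Mtf1, and 2 zinc exporter genes (Slc30a1 and Slc30a3). They were chosen by name and matched exactly to the gene symbols of the deposited tables, where all 6 were found among 24346 symbols. RNA of the mouse retina was measured in 6 libraries. There were 3 from Unc119+/+ mice (wild type) and 3 from Unc119-/- mice (knockout), and the question was how the expression of these genes differed when Unc119, a carrier of lipid-modified photoreceptor proteins, was disrupted. The type of the Unc119 allele, the strain, the age and any shared transgene or treatment are not stated by the labels, and the labels do not say that each library came from a separate animal, so the p-values measure the spread between libraries, which may be technical.

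Metallothioneins are small cysteine-rich proteins that bind zinc and copper and buffer the free metal in a cell. When zinc rises, the zinc-finger protein MTF1 binds metal response elements in front of Mt1, Mt2 and Slc30a1 and activates them. Most SLC30 proteins move zinc out of the cytosol. ZnT1 (Slc30a1) does so across the plasma membrane and ZnT3 (Slc30a3) into synaptic vesicles. The SLC39 proteins bring zinc into the cytosol. In the retina, metallothioneins are known from glia, where injury and glucocorticoids can induce Mt1 and Mt2, and Mt3 is the form best known from the nervous system.

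The 4 metallothionein genes of the mouse lie side by side on chromosome 8 (mm10, GENCODE M21), within 43131 bases and all on the plus strand. In order they are Mt4 (94137197 to 94139031), Mt3 (94152607 to 94154146), Mt2 (94172664 to 94173568) and Mt1 (94179082 to 94180327), with a gap of 5513 bases between Mt2 and Mt1. Their main transcripts are short, with 549 bases for Mt1, 511 for Mt2 and 536 for Mt3, each in 3 exons. Mtf1 lies on chromosome 4 (124802104 to 124849800, plus strand), Slc30a1 on chromosome 1 (191906767 to 191913247, plus strand) and Slc30a3 on chromosome 5 (31086106 to 31108237, minus strand).

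The bases just upstream of Mt1, Mt2, Mt3 and Slc30a1 are shown because MTF1, one of the 6 genes, is known to act through such sequence. They are from RefSeq (GRCm38.p6, the same build as mm10), read on the plus strand from 5′ to 3′, at chr8:94178839-94179081 for Mt1, chr8:94172368-94172617 for Mt2, chr8:94152357-94152606 for Mt3 and chr1:191906531-191906766 for Slc30a1. Each stretch begins 250 bases before the RefSeq start used and stops before the first GENCODE transcript base. Capitals mark matches to the core of the metal response element, written here as TGCACNC or TGCGCNC, on either strand.
Mt1: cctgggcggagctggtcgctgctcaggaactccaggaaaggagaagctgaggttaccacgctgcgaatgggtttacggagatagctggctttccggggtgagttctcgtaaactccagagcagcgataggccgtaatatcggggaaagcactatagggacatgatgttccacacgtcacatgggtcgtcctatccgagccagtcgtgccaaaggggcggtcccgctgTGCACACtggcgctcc
Mt2: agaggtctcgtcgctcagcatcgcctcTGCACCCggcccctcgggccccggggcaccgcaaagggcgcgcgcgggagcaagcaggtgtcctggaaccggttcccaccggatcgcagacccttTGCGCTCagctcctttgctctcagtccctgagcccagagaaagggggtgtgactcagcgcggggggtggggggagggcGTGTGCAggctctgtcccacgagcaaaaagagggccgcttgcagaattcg
Mt3: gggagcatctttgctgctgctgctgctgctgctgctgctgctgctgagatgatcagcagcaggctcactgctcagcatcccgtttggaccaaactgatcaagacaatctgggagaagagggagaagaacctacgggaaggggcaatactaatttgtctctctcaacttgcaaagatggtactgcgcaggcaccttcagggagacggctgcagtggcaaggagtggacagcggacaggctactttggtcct
Slc30a1: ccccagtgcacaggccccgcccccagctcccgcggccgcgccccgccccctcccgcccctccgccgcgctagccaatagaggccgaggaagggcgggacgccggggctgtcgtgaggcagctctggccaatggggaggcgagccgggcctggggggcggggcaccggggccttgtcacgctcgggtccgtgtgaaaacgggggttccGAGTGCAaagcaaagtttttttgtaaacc

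The upstream stretch of Mt2 held 3 core matches, that of Mt1 held 1, that of Slc30a1 held 1 on the opposite strand, and that of Mt3 held 0. Counted from the RefSeq start, the match of Mt1 lay at bases −23 to −17, and those of Mt2 at −223 to −217, −128 to −122 and −50 to −44, the last on the opposite strand. Among 32817 upstream windows of 250 bases over all genes in the table, 21.4% held at least 1 such match and 1.26% held at least 3. Mtf1 had no match in its window and Slc30a3 had 1 match in 1 of its 2 windows. The matched letters are a description of these windows and do not show binding, and a window without them says nothing of sequence further away. Later transcript starts are annotated too, such as 94179211 and 94179241 for Mt1 and 94172860 for Mt2. The bases just before these later starts were not searched, so the counts do not compare whole promoters of Mt1 and Mt2.

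**Figure D1:**
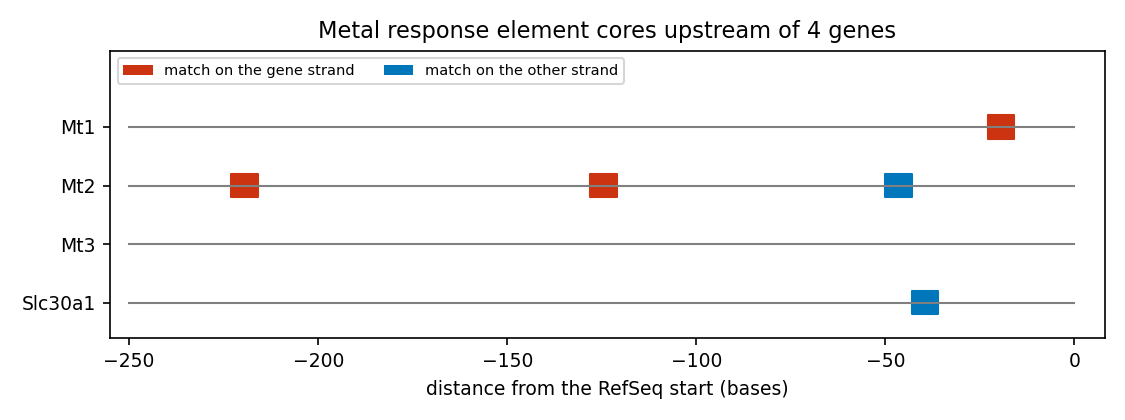
Position of metal response element cores (boxes) in the 250 bases upstream of Mt1, Mt2, Mt3 and Slc30a1; the x axis is the distance in bases from the RefSeq start, and colour gives the strand of the match. Mt2 has 3 boxes, Mt1 and Slc30a1 have 1 each and Mt3 has none.

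Before the values, the libraries were checked. Unc119 measured 1191, 1187 and 1206 FPKM in the wild-type libraries, in replicate order, and 510, 460 and 449 FPKM in the knockout libraries, where FPKM is the number of fragments normalised to transcript length and to library size. Its log2 change was −1.34 (SE 0.06, limma adjusted p = 6.6e-05), so it was lower in each knockout library but still present. Summed markers of rods and cones reached 27161 to 29275 FPKM over the 6 libraries, and none of those 15 genes was at 0 in all libraries. Lens markers summed to 33.7 to 813 FPKM in wild type, and to 299, 626 and 13794 FPKM in knockout replicates 1, 2 and 3, so knockout replicate 3 stood apart in lens RNA. Xist and Y-linked genes marked 3 libraries as male (wild-type replicates 1 and 2, knockout replicate 1) and 3 as female. The number of fragments is unknown; relative to wild-type replicate 2, set to 1, depth was 0.763 and 0.805 in the other wild-type libraries and 0.931 to 0.964 in the knockout.

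None of the 6 genes passed the test between knockout and wild type. All 6 had a mean of at least 0.5 FPKM and were tested with 14176 genes in all by limma on log2(FPKM + 1), with an adjusted p under 0.05 as the threshold; 0.233% of all genes tested passed (0.205% higher and 0.0282% lower in the knockout). At an unadjusted p under 0.05 there was 1 of the 6 (Mt3), against 9% of all genes (5.19% higher in the knockout). The knockout libraries did not overlap the wild-type libraries for 1 of the 6 genes, Mt3 again, against 15.9% of all genes (7.83% with the knockout higher, 8.04% lower), so 1 of 6 is close to the share over all genes. The median log2 change of the 6 was 0.16, against −0.0017 over all genes tested, with 4 above 0 and 2 below, where 49.3% of all genes were above 0. In whole retina, a change in the number of cells of a type and a change in RNA per cell cannot be told apart.

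Mt1, one of the 2 widely expressed metallothioneins, was the most abundant of the 6. It measured 59.5, 71.7 and 72.3 FPKM in the wild-type libraries (replicates 1, 2 and 3), against 79.8, 87.6 and 66.4 FPKM in the knockout libraries. The ranges overlapped, since knockout replicate 3 was below 2 of the wild-type libraries, while knockout replicates 1 and 2 were above all of them. The means were 67.8 ± 7.26 FPKM in wild type, against 78.0 ± 10.7 FPKM in the knockout (SD, n = 3 each), a ratio of 1.15. The log2 change was 0.19 (SE 0.11, limma adjusted p = 0.640), and its 95% interval reached from −4.38% to 36.9% on the scale of FPKM + 1. Leaving out wild-type replicate 1 gave 0.10, knockout replicate 2 gave 0.11 and knockout replicate 3 gave 0.30, and the change was 0.32 with a term for lens RNA in the fit. Among males the change of Mt1 was 0.29 and among females 0.08, with no test.

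Mt2, the partner of Mt1 on the chromosome, measured 34.1, 46.7 and 39.3 FPKM in wild type, against 39.8, 56.2 and 48.9 FPKM in the knockout, in replicate order. Wild-type replicate 2 was above knockout replicate 1, so the genotypes overlapped, and knockout replicate 2 was the highest library for Mt2 as for Mt1. Means of 40.0 ± 6.37 and 48.3 ± 8.21 FPKM (SD, n = 3 each) gave a ratio of 1.21 and a log2 change of 0.26 (SE 0.14, limma adjusted p = 0.627). The interval, from −4.62% to 50.8%, was the widest of the 3 metallothioneins. The change of Mt2 was 0.15 when wild-type replicate 1, or knockout replicate 2, was left out, and 0.16 with the lens term. Between libraries of 1 sex the change of Mt2 was −0.0033 in males and 0.41 in females, with no test since each sex has 1 library on 1 side. GENCODE places an antisense gene, Gm45774, over 749 bases of Mt2 on the opposite strand, and 45.8% of the 50-base words of Mt2 transcripts are also found in that gene. The library kit keeps strand, but whether strand was used in counting is not stated by the sources at hand, so reads of the pair may not be told apart. Mt1 and Mt3 transcripts shared no 50-base word with another annotated gene.

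Mt3, the metallothionein best known from neurons and glia of the brain, measured 22.3, 23.7 and 19.8 FPKM in wild type, against 28.5, 28.2 and 24.2 FPKM in the knockout. Every knockout library was above every wild-type library, and the nearest libraries were knockout replicate 3 at 24.2 FPKM and wild-type replicate 2 at 23.7 FPKM. With means of 21.9 ± 1.98 and 27.0 ± 2.41 FPKM (SD, n = 3 each), the ratio was 1.23 and the log2 change 0.29 (SE 0.09). The limma p was 0.0117 unadjusted and 0.427 adjusted. With 3 libraries against 3, an exact permutation p cannot go below 0.1, which is the value Mt3 reached. Its 95% interval ran from 5.97% to 40.4% higher before any adjustment for the number of genes. Mt3 ranked 390 of 14176 genes by p. Among libraries of 1 sex, the log2 change of Mt3 was 0.30 in males and 0.38 in females.

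The summed markers of astrocytes and of microglia, like Mt3, did not overlap between genotypes and were higher in the knockout. The summed level of 8 astrocyte markers was 183 to 201 FPKM in wild type, against 214 to 261 FPKM in knockout retinas, and that of 14 microglia and macrophage markers was 56.7 to 61.3 and 87.5 to 107 FPKM. Aldoc made up most of the astrocyte sum, at 154 to 169 FPKM in wild type and 173 to 211 FPKM in the knockout (limma adjusted p = 0.523). Of the 7 tested astrocyte markers 6 changes were above 0 and 1 (Igf1) was below. For 15 Müller glia markers the sums overlapped, at 2390 to 2545 and 2521 to 3063 FPKM. In knockout replicate 3, which had the highest sum, Clu (539 FPKM), Apoe (507 FPKM) and Vim (198 FPKM) were at their highest of all libraries. Rlbp1 (199 FPKM) and Slc1a3 (68.0 FPKM) were at their lowest there, so the Müller sum does not stand for every gene on its list. None of the markers on these 3 lists was at 0 in all libraries. Of the tested markers, 1 of 7 on the astrocyte list (Gfap), 2 of 14 on the microglia list (C1qc and Ctss) and 0 of 15 on the Müller list passed by limma, all 3 of them higher. On the microglia list 11 of 14 genes did not overlap between genotypes, against 15.9% of all genes, while Csf1r, P2ry12 and Tmem119 overlapped. On the astrocyte list 4 of the 7 tested genes did not overlap, all higher in the knockout. Of the 15 on the Müller list, 4 did not overlap with the knockout higher and 2 with it lower. At an unadjusted p under 0.05 there were 4 of 7, 10 of 14 and 4 of 15 on these lists. Over all genes tested, 0.233% passed and 9% were under 0.05 unadjusted. The Müller list was mixed, with 9 changes above 0 and 6 below, and Glul, glutamine synthetase, was the lower one of its 4 (log2 change −0.11, limma adjusted p = 0.522). Their part in the level of Mt3 was not tested. Knockout replicate 3 had the highest sum of each of these 3 lists and also the most lens RNA (13794 FPKM of lens markers). Mt3 was at its lowest of the knockout libraries there, at 24.2 FPKM, so within the knockout it did not follow these sums. The relations of the sums and of lens RNA to Mt3 cannot be told apart in that library.

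**Figure D2:**
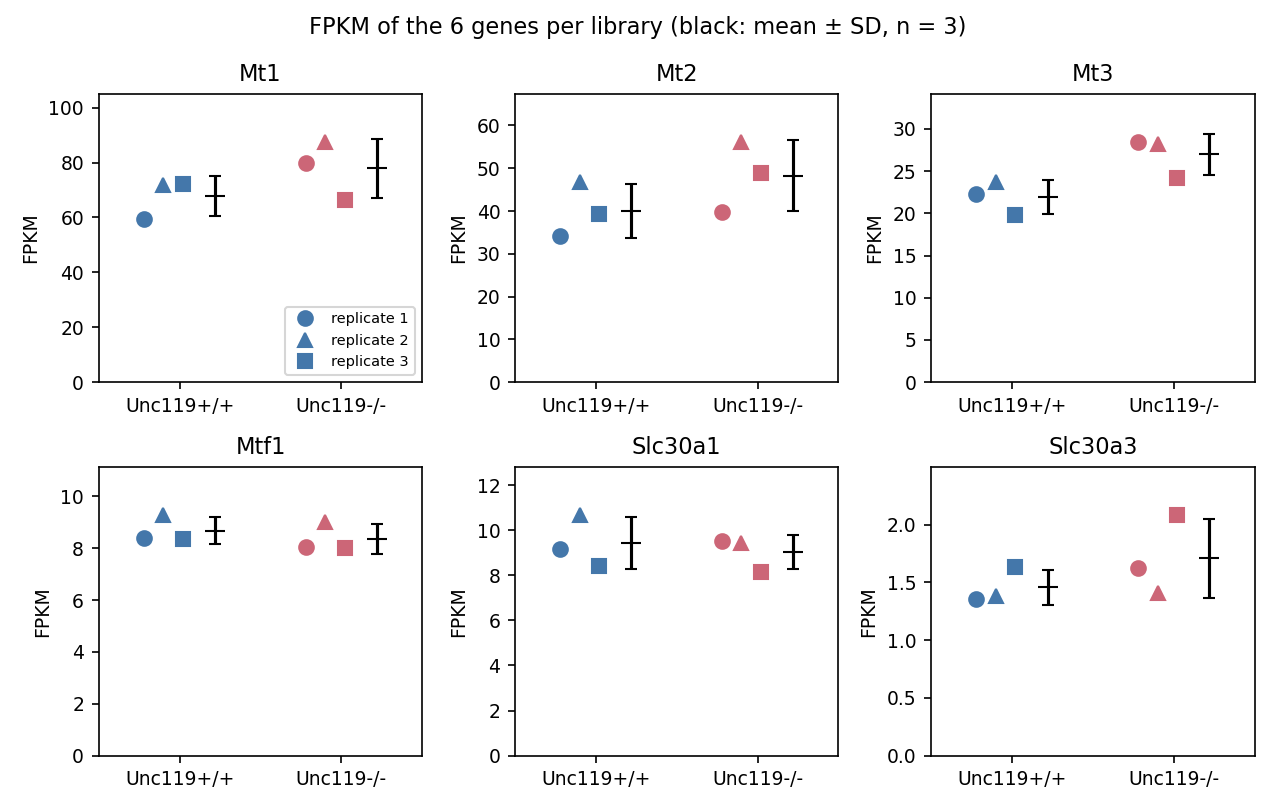
FPKM (y axis, from 0) of the 6 genes in the 3 Unc119+/+ (blue) and 3 Unc119-/- (red) libraries; symbols give the replicate number and black bars the mean ± SD, n = 3. The genotypes are separate for Mt3 and overlap for the other 5 genes.

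Mt4, a metallothionein of squamous epithelia, was listed at 0 FPKM in all 6 libraries and was not tested. The other 3 metallothioneins together measured 130 ± 13.2 FPKM in wild type, against 153 ± 16.9 FPKM in the knockout (SD, n = 3 each), about 0.0336% and 0.0391% of the summed FPKM of a library. Per library the sum was 116, 142 and 131 FPKM in wild type, against 148, 172 and 139 FPKM in knockout retinas, so knockout replicate 3 was below wild-type replicate 2. Their proportions were close in the genotypes. Mt1 made up 52.3% ± 2.43 of the sum in wild type and 50.8% ± 3.13 in the knockout, Mt2 30.7% ± 1.87 and 31.5% ± 4.19, and Mt3 17.0% ± 2.12 and 17.7% ± 1.44 (SD, n = 3 each).

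The balance of Mt1 to Mt2 was more spread among knockout libraries, a difference in spread that was not tested. The ratio of Mt1 to Mt2 FPKM was 1.74, 1.53 and 1.84 in wild type and 2.0, 1.56 and 1.36 in the knockout. Knockout replicate 1 thus had the most Mt1 relative to Mt2 and knockout replicate 3 the least of the 6 libraries, and the means were 1.71 ± 0.156 and 1.64 ± 0.330 (SD, n = 3 each). Mt1 and Mt2 lay on the same side of their own means in 3 of the 6 libraries, and Mt1 and Mt3 in 6 of 6. Some log2 deviations were close to 0, such as −0.00067 for Mt1 in wild-type replicate 3 and −0.0037 for Mt3 in knockout replicate 3. These counts could therefore turn on very small differences.

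**Figure D3:**
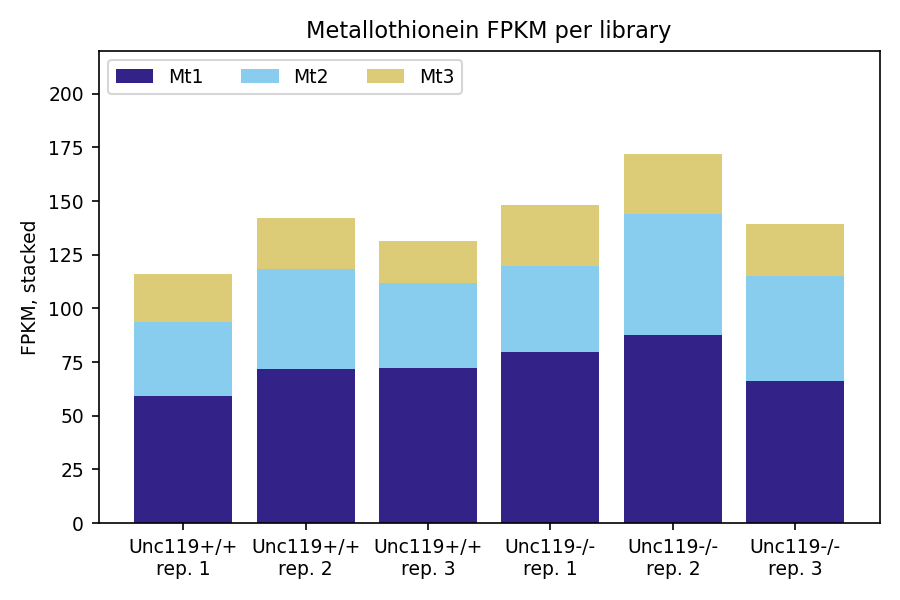
Stacked FPKM of Mt1, Mt2 and Mt3 (y axis, from 0) in each of the 6 libraries (x axis). The sum runs from 116 FPKM in wild-type replicate 1 to 172 FPKM in knockout replicate 2.

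Mtf1, which encodes the zinc sensor that drives Mt1 and Mt2, differed little between libraries. It measured 8.41, 9.28 and 8.37 FPKM in wild type, against 8.04, 9.01 and 8.03 FPKM in the knockout, in replicate order. The genotypes overlapped, and replicate 2 was the highest library in each. Means were 8.69 ± 0.516 and 8.36 ± 0.565 FPKM (SD, n = 3 each), with a log2 change of −0.05 (SE 0.08, limma adjusted p = 0.878) and a 95% interval from −15.1% to 10%. The mRNA level does not measure MTF1 activity, which depends on zinc binding. On the opposite strand, 721 bases of Mtf1 are shared with the protein-coding gene 1110065P20Rik, which measured 26.0 to 36.7 FPKM.

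Slc30a1, the plasma membrane exporter that MTF1 induces with zinc, measured 9.18, 10.7 and 8.43 FPKM in wild type, against 9.50, 9.41 and 8.14 FPKM in the knockout. The highest and the next-to-lowest library were both wild type. The means were 9.42 ± 1.14 and 9.02 ± 0.760 FPKM (SD, n = 3 each), and the log2 change was −0.05 (SE 0.10, limma adjusted p = 0.895), with a 95% interval from −18.2% to 13.4%. This change was above 0 without wild-type replicate 2 (0.03, limma adjusted p = 0.941) and without knockout replicate 3 (0.0099, limma adjusted p = 0.993), so it has no stable sign. An antisense gene, 1700034H15Rik, shares 761 bases with it and measured 0.932 to 1.56 FPKM.

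Slc30a3, the exporter that fills synaptic vesicles with zinc, was the least abundant of the 6, in the lower part of the genes tested (percentile 12.3 by mean FPKM, against 93.8 for Mt1). It measured 1.36, 1.38 and 1.63 FPKM in wild type, against 1.63, 1.41 and 2.08 FPKM in the knockout. Knockout replicate 3 was the highest, and the other 2 knockout libraries lay within the wild-type range. The means were 1.46 ± 0.152 and 1.71 ± 0.342 FPKM (SD, n = 3 each), and the log2 change was 0.13 (SE 0.14, limma adjusted p = 0.788), with a 95% interval from −12.1% to 36.7% on the scale of FPKM + 1, which understates the change of a gene this low. Without knockout replicate 3 the change was 0.04 (limma adjusted p = 0.971).

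In level per length, the order of the 6 genes was Mt1, Mt2, Mt3, Slc30a1, Mtf1 and Slc30a3. It held in each of the 6 libraries. The ranges of neighbours over the libraries did not overlap except for Slc30a1 and Mtf1, where the lowest Slc30a1 value was 8.14 FPKM and the highest Mtf1 value 9.28 FPKM. Since the metallothionein transcripts are short, their FPKM rest on the length correction made in processing more than those of longer genes do.

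None of the other zinc transporters passed the test. Of 8 further SLC30 genes 6 were tested, and of 14 SLC39 genes 11; none of these 17 passed by limma, with 0 and 1 at an unadjusted p under 0.05. Among the 6 SLC30 genes 3 changes were above 0 and 3 below, with a median log2 change of −0.0016 and a range from −0.13 to 0.06. The 11 SLC39 genes had 9 above 0 and 2 below, a median of 0.05 and a range from −0.01 to 0.28. Over all genes tested, 9% were under 0.05 unadjusted and 49.3% of changes were above 0. Slc30a2, Slc30a8, Slc39a4, Slc39a5 and Slc39a8 were under the filter, with means of 0.0126 to 0.330 FPKM.

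Slc30a9 was the most abundant of all the zinc transporters, at 57.5 ± 1.89 FPKM in wild type, against 55.1 ± 3.42 FPKM in the knockout (SD, n = 3 each, limma adjusted p = 0.755). Slc30a4 had the lowest p of the further SLC30 genes, at 14.7 ± 0.726 and 13.3 ± 0.863 FPKM (log2 change −0.13, limma adjusted p = 0.620). Its change was −0.08 without knockout replicate 3 and −0.05 with the lens term. Slc39a7, which releases zinc from the endoplasmic reticulum, was the most abundant importer, at 43.1 ± 3.46 and 44.0 ± 1.36 FPKM (limma adjusted p = 0.903). The plasma membrane importer Slc39a1 measured 13.2, 13.6 and 14.4 FPKM in wild type, against 16.8, 14.7 and 18.9 FPKM in the knockout. Its genotypes did not overlap, yet its log2 change of 0.27 (SE 0.09, 95% interval 0.05 to 0.48) did not pass (limma adjusted p = 0.497).

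**Figure D4:**
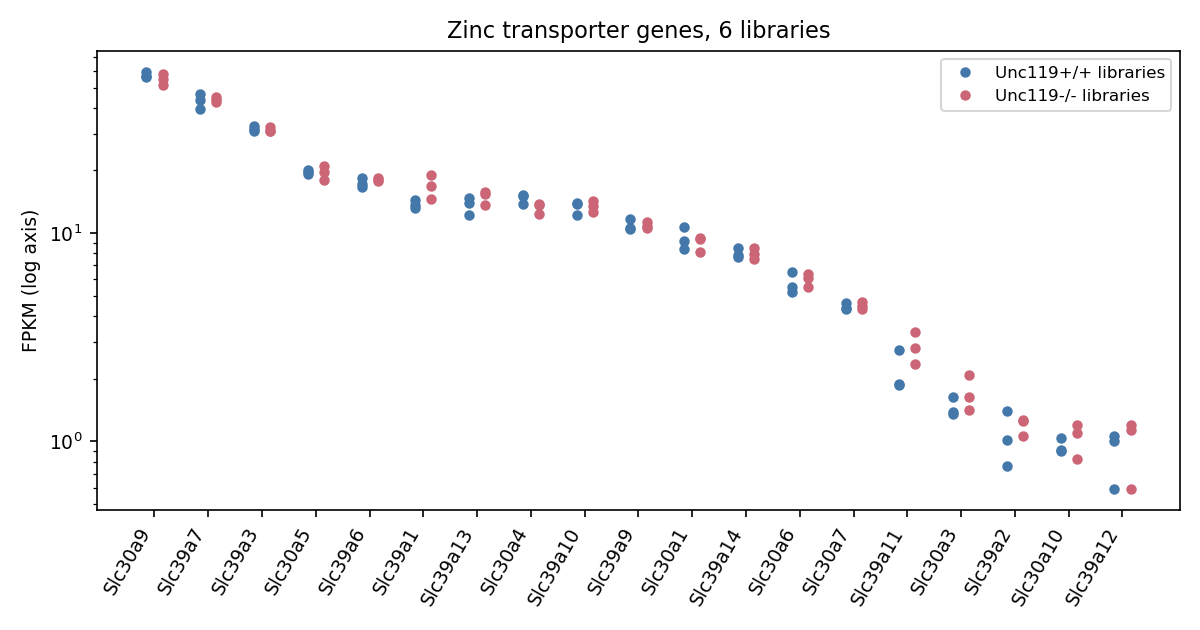
FPKM (log axis) of the 19 tested SLC30 and SLC39 genes, Slc30a1 and Slc30a3 included, ordered by mean level, with 1 point per library (blue Unc119+/+, red Unc119-/-). Levels run from above 50 FPKM for Slc30a9 to about 1 FPKM for Slc39a12, and the genotypes overlap for every gene shown except Slc39a1.

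Other genes linked to the regulation of metallothioneins were measured beside them. Of 4 tested genes linked to MTF1 none passed by limma, none was under 0.05 unadjusted, and the median log2 change was 0.0043. The most abundant, Sepw1 (selenoprotein W), measured 255 ± 5.32 and 252 ± 18.4 FPKM (SD, n = 3 each), and Pgf, a growth factor of vessels with the lowest p, 0.421 ± 0.0622 and 0.804 ± 0.597 FPKM (log2 change 0.29, limma adjusted p = 0.727). The knockout libraries of Pgf were at 0.667, 0.287 and 1.46 FPKM, so the mean rested on replicate 3. The change of Pgf was 0.51 without knockout replicate 2 and 0.03 with the lens term. Without knockout replicate 3 Pgf was under the filter and has no value. Of 8 other transcription factors that act on metallothionein genes, none passed by limma, 1 was under 0.05 unadjusted, and the median was 0.05. Hif1a, the hypoxia factor, was the most abundant, at 185 ± 9.79 and 186 ± 6.81 FPKM (limma adjusted p = 0.982). Stat3, which mediates induction by cytokines of the interleukin 6 family, measured 19.8, 21.9 and 20.3 FPKM in wild type, against 24.1, 29.4 and 25.8 FPKM in the knockout, with no overlap between genotypes (log2 change 0.34, SE 0.08, limma adjusted p = 0.284).

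**Figure D5:**
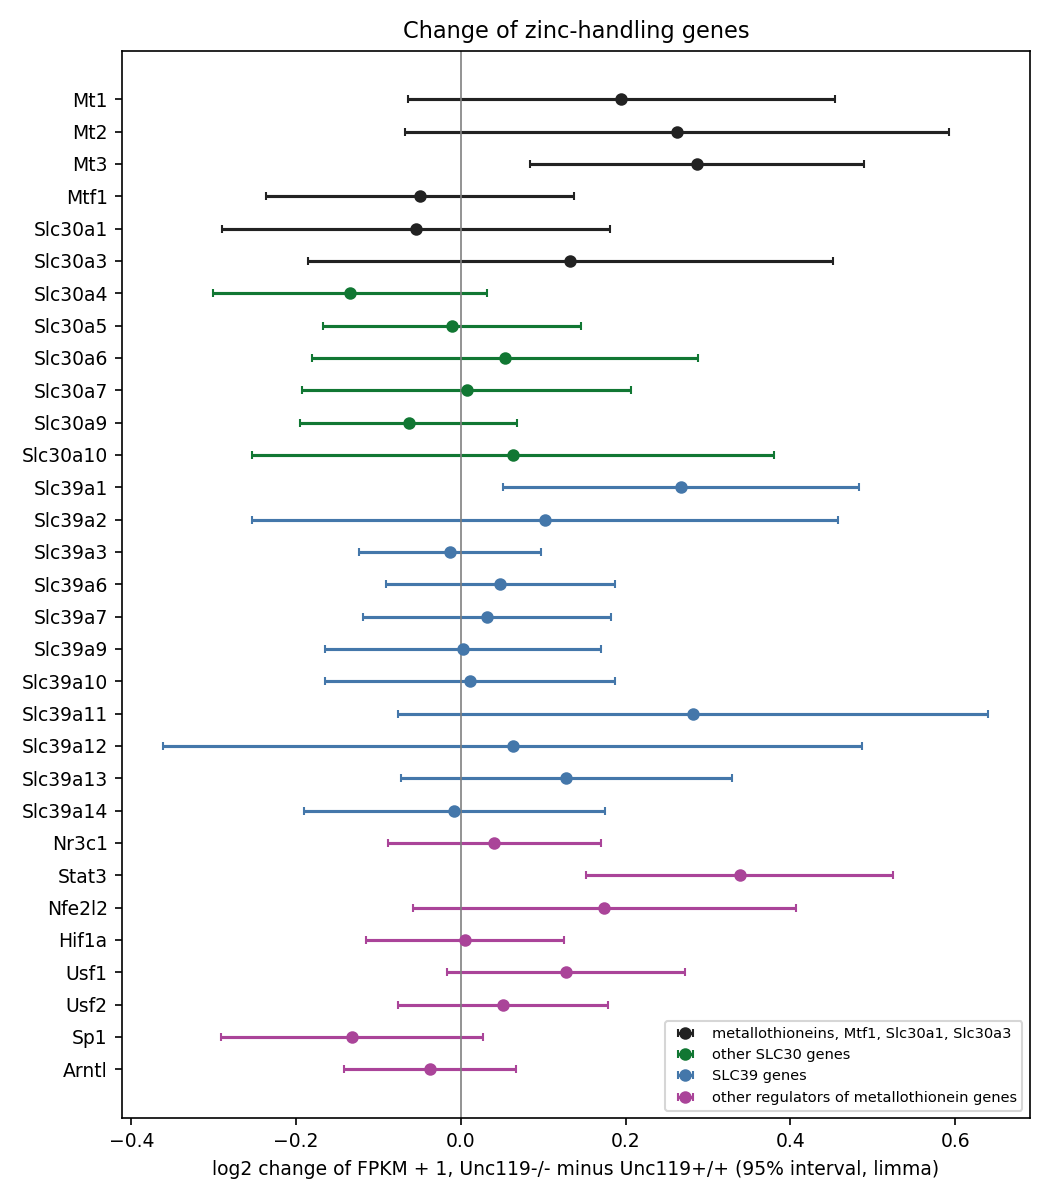
Log2 change of FPKM + 1, knockout minus wild type (x axis), with its 95% interval by limma for the 6 genes, the tested SLC30 and SLC39 genes and 8 other regulators. The intervals of Mt3, Slc39a1 and Stat3 lie above 0 before adjustment, and none of the genes shown passed after it.

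Glucocorticoids induce Mt1 and Mt2 along with other genes. Of 12 tested genes of that kind 1 rose and none fell by limma, where 0.233% of all genes tested passed. At an unadjusted p under 0.05 there were 2, against 9% of all genes. Of these Cebpd was higher and Tsc22d3 lower in the knockout (Tsc22d3 log2 change −0.17, limma adjusted p = 0.499). The median log2 change was −0.03, with 5 above 0 and 7 below. The gene that rose was Cebpd, which is also a gene of the acute-phase response, from 2.14, 2.60 and 1.43 FPKM in wild type to 5.43, 7.99 and 6.53 FPKM in the knockout libraries (log2 change 1.33, SE 0.18, limma adjusted p = 0.0412). With 1 library fewer Cebpd no longer passed, whichever library it was (adjusted p = 0.0680 to 0.170), while its log2 change stayed between 1.17 and 1.46. Sgk1, the most abundant of the list and a kinase that controls ion transport, measured 211 ± 10.9 and 228 ± 14.0 FPKM (SD, n = 3 each, limma adjusted p = 0.614).

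Metallothioneins also bind copper. Of 15 copper-handling genes none passed by limma, 1 was under 0.05 unadjusted, and the median log2 change was −0.0012, with 7 above 0 and 8 below. Cp, which encodes the copper ferroxidase ceruloplasmin, measured 47.9, 48.3 and 46.2 FPKM in wild type, against 53.8, 60.9 and 82.1 FPKM in the knockout. No library of Cp overlapped the other genotype, and the highest value was in knockout replicate 3, which also held the most lens RNA (log2 change 0.44, SE 0.13, limma adjusted p = 0.436). The change of Cp was 0.26 without knockout replicate 3 (limma adjusted p = 0.406) and 0.21 with a term for lens RNA in the fit (limma adjusted p = 0.900). The copper and zinc enzyme Sod1, the most abundant of the list, measured 202 ± 3.72 and 215 ± 7.03 FPKM (SD, n = 3 each, limma adjusted p = 0.575). Of 10 genes of metal, oxidative and heat stress none passed by limma and 2 were under 0.05 unadjusted. Of their changes 8 were above 0, and the median was 0.19. Over all genes tested, 9% were under 0.05 unadjusted, 49.3% of changes were above 0 and the median was −0.0017. The heat shock gene Hspa1b measured 5.50 ± 0.495 and 6.85 ± 0.732 FPKM (limma adjusted p = 0.515), and Srxn1, sulfiredoxin, 28.8 ± 0.360 and 30.8 ± 2.22 FPKM (limma adjusted p = 0.694). Hspa1b has a near copy, Hspa1a, so its value is uncertain.

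Patterns like those of the 6 genes were sought among 13152 other tested genes, leaving out predicted and clone-named genes (such as Gm and Rik symbols). Likeness was the root mean square difference, over the 6 libraries, of log2(FPKM + 1) after each gene was centred on its own mean, and it is given as a description. For Mt1 the nearest was Magee2 at 0.01, followed by Cmc2 and Tmem170 at 0.05 each, and none of these 3 is a metallothionein. For Mt2 the nearest were Sssca1 and Nagpa at 0.05 and 0.06 and Arid3a at 0.06. For Mt3 they were Syngr2, Rilpl2 and Tmem160 at 0.05, 0.05 and 0.06. By the same measure Mt1 and Mt2 were 0.18 apart, Mt1 and Mt3 0.15, and Mt2 and Mt3 0.21. The nearest genes are the closest of all 13152 over few libraries, so their distances cannot be set against those of single pairs.

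For Mtf1 the nearest were Dynll1, Zfp664 and Tubb4a, each at 0.02. Mdp1, Dirc2 and Phf23 were nearest to Slc30a1, at 0.02, 0.02 and 0.03, and Clrn1, Zbtb7b and Apoa1bp to Slc30a3, at 0.02, 0.02 and 0.03. Mtf1 and Slc30a1 were 0.08 apart, the closest pair among the 6 genes. None of the 18 nearest genes passed the test between genotypes by limma. They were picked for patterns near those of genes that did not pass, so this adds no evidence.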

How the data were processed

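The authors deposited, for each library, a table of gene symbols with their FPKM, the unit named in the file headers. TopHat2 2.1.1, Cuffdiff 2.2.1 and the build mm10 are named in the submitters' processing notes, and the libraries were made from TRIzol RNA with a stranded mRNA kit, per the labels. The annotation, the strand setting and the scaling between libraries are not stated by the labels. FPKM are not counts, so depth is unknown and no count test was used. A gene that takes more of a library lowers the others.

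The 6 tables were joined by symbol (Python 3.11.15, pandas 2.3.3). Genes with a mean of at least 0.5 FPKM were tested, 3 libraries against 3, by limma 3.58.1 (R 4.3.3), two-sided, on log2(FPKM + 1), with a mean-dependent prior variance and Benjamini-Hochberg adjustment over all 14176 genes. The fit was tested on simulated data. Exact permutation tests used scipy 1.17.1 and are two-sided. Relative depth is the commonest ratio between libraries among genes of at most 0.3 FPKM.

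The members and gene lists were chosen with earlier results of these data known, and no list was tested as a set. Named genes are the 6 members, Mt4, Unc119, from each companion list the called genes, the most abundant gene and, if no gene was called, that with the lowest p, and the 3 genes nearest in pattern to each member. Other genes were named after their values were seen. Of the listed symbols, Selenow (listed as Sepw1) and Hbb-bt were not matched. RefSeq promoter windows matched all 6 members and Mt4; protein sequences were not used here. Alternatives were other pseudocounts (0.1 and 0.5), filters, scalings, variance and weight settings, a replicate block, terms for sex and lens RNA, and leaving out each library.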

Additional observations from a re-analysis of the deposited data

How the results depend on the processing

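None of the 6 members, and none of the other zinc transporters, was called under any alternative run. Mt1, Mt2 and Mt3 stayed above 0 in every alternative with a test. Leaving out 1 library at a time, the log2 change ran from 0.10 to 0.30 for Mt1, 0.15 to 0.39 for Mt2, 0.22 to 0.36 for Mt3, −0.10 to −0.0056 for Mtf1, −0.12 to 0.029 for Slc30a1 (0.0099 without knockout replicate 3) and 0.04 to 0.21 for Slc30a3. The adjusted p of Mt3 ran from 0.310 with array weights to 0.841 with the lens term. Slc30a3 was under the stricter filter of 5 FPKM and has no value there.

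Within 1 sex, as values with no test, Mt2 was −0.0033 in males against 0.41 in females, Mt3 0.30 and 0.38, Mt1 0.29 and 0.08, Slc30a3 0.15 and 0.05, Mtf1 −0.12 and 0.022, and Slc30a1 −0.05 and 0.049; each sex has only 1 library on 1 side. Over all genes, 33 were called (29 higher, 4 lower), 20 with constant prior variance, 19 with a sex term, 7 with the lens term, and 12 to 27 with 1 library left out. Changes near 0 turned sign for Slc39a7 (−0.044 with the lens term, −0.029 to 0.085 with 1 library left out), Sepw1 (−0.073 to 0.030 with 1 library left out) and Hif1a (−0.0027 with quantile normalization, −0.021 to 0.048 with 1 library left out); the cause was not tested. Cebpd also lost its call with no filter, quantile normalization, constant prior variance, the replicate block, the sex term and the lens term (adjusted p = 0.0524 to 0.251).

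Correlations over all genes gave no sign that the replicate numbers pair the libraries, but they do not settle it. Deviations of same-numbered libraries correlated at 0.07, −0.09 and −0.12, and only 1 of the 3 wild-type libraries correlated best with the knockout library of its own number. With the replicate block 15 genes were called, and the limma adjusted p of Mt1, Mt2 and Mt3 was 0.664, 0.347 and 0.380. The SE of their log2 changes was 0.104, 0.050 and 0.058 with the block, against 0.112, 0.143 and 0.088 without it.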
